A study of Mus musculus with 36 samples.

Results

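The 8 genes described here, Adora2a, Gpr6, Adcy5, Pde10a, Rgs9, Ppp1r1b, Tac1 and Bcl11b, act in or specify the projection neurons of the striatum, and were taken by symbol from the 19025 genes of the expression table. RNA was sequenced from brain tissue of C57 mice aged 6 to 7 weeks, of the genotypes KI and WT. KI mice carry a knock-in of a synonymous base change at Maoa, which encodes monoamine oxidase A, and WT mice are the wild type. Each of 6 brain regions, labelled STR, Nac, HP, PFc, SN and VTA, had 3 KI and 3 WT libraries, 36 in all. The labels do not spell out the region names. To choose marker genes they were read as striatum, nucleus accumbens, hippocampus, prefrontal cortex, substantia nigra and ventral tegmental area. Whether each library of a group is a different animal is not stated, and the p-values therefore reflect library-to-library spread that could be technical.

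Nearly all neurons of the striatum are GABAergic projection neurons, which fall into a direct and an indirect pathway. Direct pathway cells carry the D1 dopamine receptor and the substance P precursor Tac1, and indirect pathway cells carry the D2 dopamine receptor, the adenosine receptor Adora2a and the orphan receptor Gpr6. Both kinds raise cAMP through adenylyl cyclase 5 (Adcy5) and break it down with the phosphodiesterase Pde10a. The kinase that cAMP activates phosphorylates DARPP-32, the product of Ppp1r1b, which then inhibits protein phosphatase 1. Rgs9 ends G protein signals by speeding GTP hydrolysis, and the zinc finger factor Bcl11b (CTIP2) is needed for these neurons to mature.

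Total counts per library ran from 15145631 to 17452959 in KI and from 17275279 to 18863503 in WT, so a level of 1 CPM (counts scaled by the library total) stands for about as many reads in each. All 8 genes were listed in every library and passed the filter on low counts in every comparison. The series title names a lower transcription of Maoa, whose mean was 65.6 CPM in KI and 46.7 CPM in WT for STR, 91.8 and 70.5 CPM for VTA, and 40.2 and 33.5 CPM for HP. It was 56.0 CPM in KI and 76.3 CPM in WT for SN, and 59.6 and 59.2 CPM for Nac, while PFc had 43.1 to 46.1 CPM in KI and 43.4 to 45.6 CPM in WT. In SN the KI libraries 1 to 3 had 45.8, 45.3 and 76.9 CPM, and the WT libraries had 66.4 to 84.6 CPM. In STR the KI libraries had 60.3 to 69.6 CPM and the WT libraries 43.6 to 49.5 CPM. In VTA the KI libraries had 85.0 to 99.4 CPM and WT libraries 1 to 3 had 77.1, 80.7 and 53.6 CPM. The authors' deposited DESeq2 q-value for Maoa was 0.0714 in STR. In the other regions it ran from 0.4348 in VTA to 0.9999 in Nac. Several libraries carried markers that go against their region label, KI SN 1 and 2 among them. They enter these Maoa means and most comparisons below. The dopamine transporter gene Slc6a3, which marks midbrain dopamine neurons, had 965 CPM in the library labelled KI Nac 1 and 192 CPM in WT Nac 2, against 0.115 to 1.38 CPM in the other 4 Nac libraries. It had 1.19 and 0.776 CPM in KI SN 1 and KI SN 2 and 0.579 CPM in WT VTA 3, against 238 to 1107 CPM in the other SN and VTA libraries. The hippocampal gene Spink8 had 15.3 CPM in both KI Nac 2 and KI SN 1, and 0.897 CPM in KI HP 2, against 12.4 to 21.3 CPM in the other 5 HP libraries. KI STR 3 had Slc6a3 at 65.8 CPM and a lower choroid plexus score than the other STR libraries, and KI PFc 1 had both cortical markers (Tbr1 at 143 CPM) and striatal ones. Which libraries to doubt was decided from such markers, partly of the same cells as the members, so leaving them out is not independent of the member genes. In tissue of this kind, fewer cells of a type and less RNA per cell cannot be told apart.

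Striatal receptors showed the widest range of the members. Adora2a, the adenosine receptor gene of indirect pathway cells (gene 11540, chromosome 10, 75316877 to 75334792 in GRCm38.p6), ran from 1.10 CPM in KI Nac 2 to 305 CPM in WT STR 1, a 278-fold span. In STR it had 119, 85.3 and 14.1 CPM in KI libraries 1 to 3 and 305, 84.5 and 137 CPM in WT libraries 1 to 3. KI STR 3 was far below the other 5, among which the genotypes overlapped. Across all 36 libraries, 13 lay above KI STR 3 in Adora2a, at 35.9 CPM or more, and these included the libraries labelled KI HP 2 at 276 CPM, KI SN 2 at 267 CPM, WT VTA 3 at 203 CPM and KI PFc 1 at 73.2 CPM. WT PFc 2 had 11.1 CPM, and the other 21 libraries had 5.76 CPM or less.

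Gpr6, an orphan receptor that signals through Gs without an added ligand (gene 140741, chromosome 10, 41069977 to 41072290), followed the same libraries. It had 28.1, 20.5 and 3.43 CPM in KI STR and 67.2, 17.9 and 30.8 CPM in WT STR. Its highest library was KI HP 2 at 76.0 CPM and its lowest KI Nac 2 at 0.519 CPM. The promoters on record were also read for cAMP response elements, the sites at which CREB binds. RefSeq promoters of GRCm38.p6 were given for Gpr6, Rgs9, Pde10a, Tac1, Adcy5 and Bcl11b, 7 windows in all, and the 250 bases before the transcript start were searched on both strands. The full palindrome TGACGTCA lay in the Gpr6 window and in no other member window, and 1.55% of all 32851 promoter windows held it. Its core TGACG, which each full palindrome also contains, lay in the Gpr6 and Tac1 windows and in 17.8% of all windows. The 2 windows are printed because they differ from the other members in this. Capitals mark the full palindrome in Gpr6 (chr10:41072291-41072540, minus strand), 71 to 78 bases before the start, and the core sites in Tac1 (chr6:7554811-7555060, plus strand), which read on the other strand as CGTCA.
Gpr6 promoter: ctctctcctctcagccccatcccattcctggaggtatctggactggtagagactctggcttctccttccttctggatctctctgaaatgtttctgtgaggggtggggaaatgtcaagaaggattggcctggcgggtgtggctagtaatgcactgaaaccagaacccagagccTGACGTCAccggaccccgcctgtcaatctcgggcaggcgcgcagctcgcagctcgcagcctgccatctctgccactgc
Tac1 promoter: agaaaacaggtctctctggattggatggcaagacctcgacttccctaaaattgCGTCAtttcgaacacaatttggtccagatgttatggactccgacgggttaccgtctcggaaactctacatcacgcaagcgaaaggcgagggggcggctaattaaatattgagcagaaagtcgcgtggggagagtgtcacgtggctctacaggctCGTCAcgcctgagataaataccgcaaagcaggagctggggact
A match of letters describes the sequence and is no evidence of binding. The GC box letters GGGCGG lay in windows of Adcy5, Pde10a, Rgs9 and Tac1, against 32.7% of all windows. The letters TATAAA lay in the Rgs9 window, 190 to 195 bases before the start, against 12.4% of all windows at any position.

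Adcy5, the main adenylyl cyclase of striatal neurons (gene 224129, chromosome 16, 35154494 to 35305743), had the narrowest range, 11.2-fold. It had 561, 449 and 188 CPM in KI STR and 1023, 403 and 604 CPM in WT STR, and its lowest library, WT VTA 2, had 123.1 CPM. Pde10a, which hydrolyses cAMP and cGMP (gene 23984, chromosome 17, 8525187 to 8986648), had 281, 223 and 65.2 CPM in KI STR and 510.0, 155 and 449 CPM in WT STR. For both genes WT STR 2 lay between KI STR 3 and the other KI libraries, so the genotypes overlapped. Predicted genes overlap Adcy5 and Pde10a in the annotation, and whether the authors' counting used strand is not given in the sources used here.

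Ppp1r1b, the gene of DARPP-32 (gene 19049, chromosome 11, 98348406 to 98357796), was the most abundant member per transcript length. Its TPM (abundance scaled by transcript length and library total) was the highest of the 8 in 33 of 36 libraries, and that of Tac1 was in the other 3, WT Nac 2, WT SN 3 and WT VTA 2. In STR, Ppp1r1b had 1111, 880 and 218 TPM in KI and 2507, 897 and 1288 TPM in WT. On the CPM scale these libraries had 922, 729 and 179 CPM in KI and 2204, 771 and 999 CPM in WT. One RNA gene, 1700003D09Rik, overlaps Ppp1r1b in the annotation.

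Rgs9 (gene 19739, chromosome 11, 109225348 to 109298181) had 159, 106 and 34.2 CPM in KI STR and 355, 109.5 and 184 CPM in WT STR. The gene makes a short form, known from photoreceptors, and a long form, known from the striatum, which share their first coding exons and end differently. Their coding sequences have 1452 and 2025 bases without the stop codon in GENCODE M21. The point at which they part is printed because the estimated transcript counts rest on it. Lower case marks the last 30 shared coding bases, and capitals the 54 coding bases that follow, at chr11:109235846-109235899 for the short form and chr11:109227551-109227604 for the long form, both on the minus strand.
Rgs9 short form: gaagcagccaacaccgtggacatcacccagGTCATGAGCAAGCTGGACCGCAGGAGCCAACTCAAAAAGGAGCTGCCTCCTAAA
Rgs9 long form: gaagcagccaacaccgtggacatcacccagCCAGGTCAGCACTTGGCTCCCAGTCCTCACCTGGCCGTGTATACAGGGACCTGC
The long form ran with the other members, and the short form varied far less. The long form had 98.6, 61.2 and 6.31 CPM in KI STR and 187, 61.1 and 131 CPM in WT STR. The short form had 19.6, 18.4 and 10.3 CPM in KI STR and 17.3, 8.96 and 21.3 CPM in WT STR. Over the 36 libraries the long form spanned 1.45 to 187 CPM and the short form 4.18 to 27.3 CPM. The short form exceeded the long form in 15 libraries, most of them labelled SN or VTA, where for example KI VTA 1 had 8.36 CPM of the short and 1.45 CPM of the long form. Its share of the gene's counts was 4.89% in WT STR 1 and 58.6% in WT SN 3, the lowest and highest of all libraries. Another, predicted transcript model took 0% to 59.8% of Rgs9 counts, and since reads of shared exons are divided by estimation, these shares are given without a test.

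**Figure D1:**
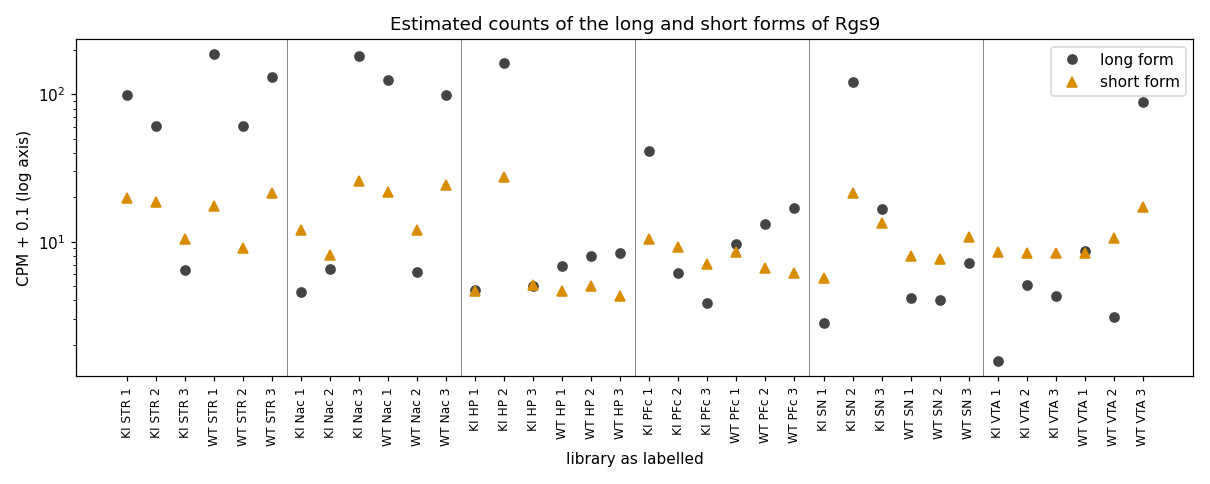
Estimated CPM plus 0.1, on a log axis, of the long (circles) and short (triangles) forms of Rgs9 in each library, with KI left of WT within each labelled region. The long form spans 1.45 to 187 CPM, while the short form stays between 4.18 and 27.3 CPM.

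Tac1, the precursor of substance P and neurokinin A (gene 21333, chromosome 6, 7555061 to 7562978), had 93.0, 53.0 and 33.7 CPM in KI STR and 182, 61.9 and 83.5 CPM in WT STR. Unlike Adora2a and Gpr6 it kept a level in the midbrain libraries, at 24.7 to 45.7 CPM in KI VTA and 29.4 and 54.0 CPM in WT VTA 1 and 2. Apart from KI HP 2, HP had low levels, 6.58 and 4.10 CPM in KI HP 1 and 3 and 7.20 to 8.98 CPM in WT HP. The gene's transcripts differ by an exon of 45 coding bases, which encodes the front part of neuropeptide K and whose absence joins the parts of neuropeptide gamma. It is printed with 20 bases on each side, in capitals (chr6:7557216-7557260, plus strand), above the same junction without it.
Tac1 with the exon: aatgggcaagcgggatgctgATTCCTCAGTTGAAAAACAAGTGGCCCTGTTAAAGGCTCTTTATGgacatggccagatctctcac
Tac1 without the exon: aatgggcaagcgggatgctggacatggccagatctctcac
The transcript without the exon was the larger in 30 of 36 libraries. Its share of Tac1 counts was 62.1%, 60.0% and 55.1% in KI STR and 63.0%, 57.8% and 62.6% in WT STR, and it ranged from 39.7% in KI Nac 2 to 64.6% in KI HP 1 over all libraries. The genotypes overlapped in STR, and no library was without either transcript.

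Bcl11b (gene 58208, chromosome 12, 107910403 to 108004145) had the profile least like that of the other members. It is also known from hippocampal and cortical neurons. It had 101, 92.5 and 44.6 CPM in KI STR and 164, 68.2 and 109.8 CPM in WT STR. In HP it had 131 and 185 CPM in KI HP 1 and 3 and 154 to 168 CPM in WT HP, each within or above the range of the STR libraries. In VTA it had 8.94 to 12.2 CPM in KI and 12.7 and 19.9 CPM in WT VTA 1 and 2. Per length it was the lowest of the 8 members in 5 of 6 STR libraries, and KI STR 3 was the exception.

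**Figure D2:**
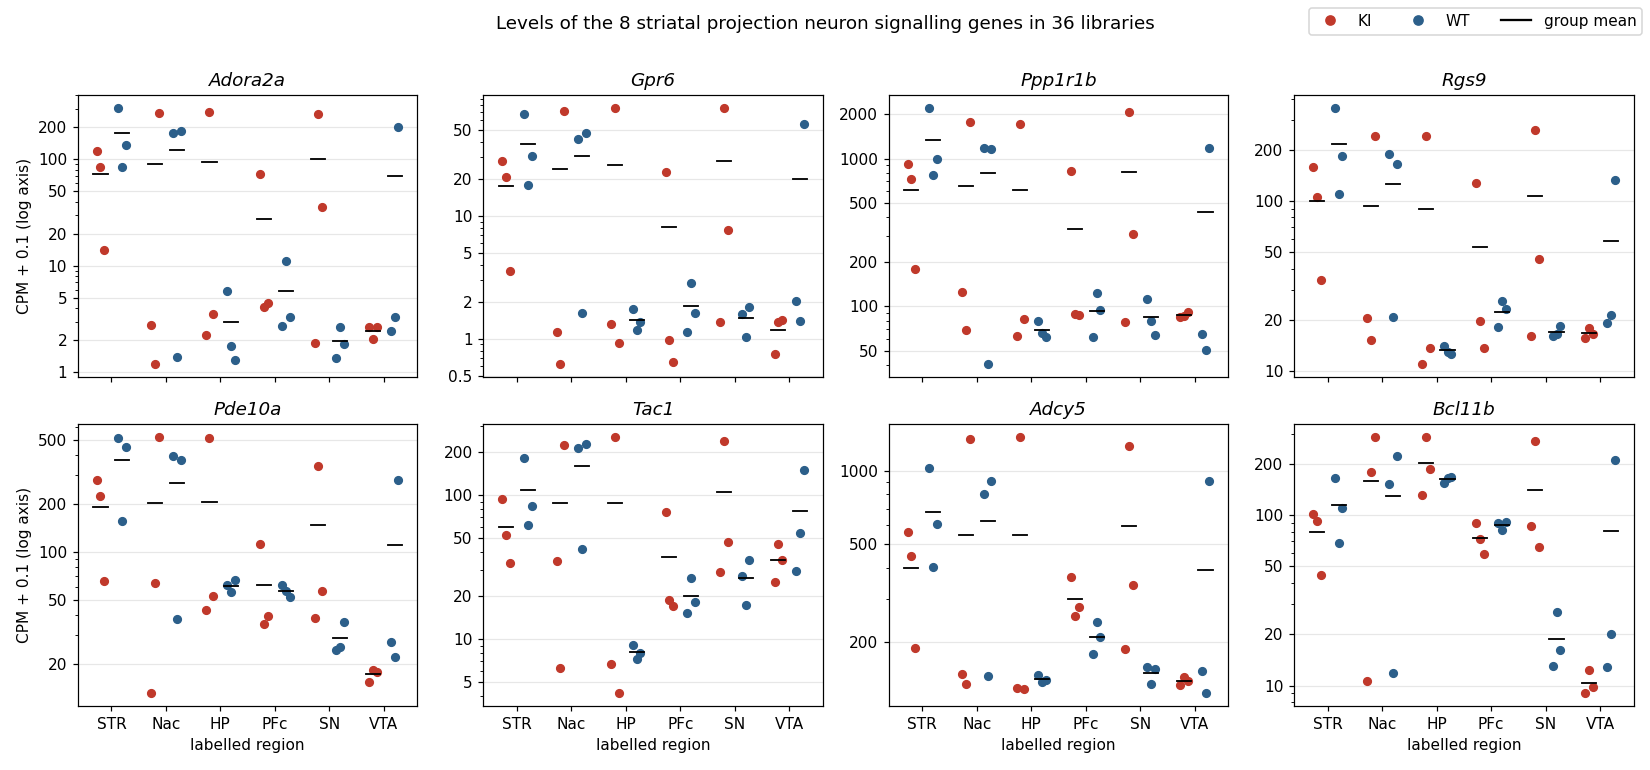
CPM plus 0.1 of each member in the 36 libraries, on log axes, by labelled region, with KI points (red) left of WT points (blue), replicates in order from left to right and black bars at the group means. High values of Adora2a in HP, PFc and VTA come from single libraries such as KI HP 2 at 276 CPM and WT VTA 3 at 203 CPM, while Bcl11b is high in every HP library.

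The members were first compared between regions in WT. WT STR was higher than the mean of the 5 other WT regions for Adora2a (log2 fold change 3.81, SE 0.90, adjusted p = 0.00707), Gpr6 (3.03, SE 0.75, adjusted p = 0.00933) and Ppp1r1b (2.83, SE 0.68, adjusted p = 0.00811), by the quasi-likelihood test of edgeR, with p adjusted by Benjamini-Hochberg over 15094 genes. Rgs9 (2.69, SE 0.48), Pde10a (2.19, SE 0.57) and Tac1 (1.59, SE 0.43) also passed, which makes 6 of 8 members, against 12.6% of all genes called higher. Adcy5 at 1.36 (SE 0.47, adjusted p = 0.0540, and 0.0305 without the libraries numbered 3) and Bcl11b at 0.51 (SE 0.67, adjusted p = 0.649) did not pass. Without the libraries numbered 1 none of the 6 passed (adjusted p 0.0769 for Rgs9 to 0.357 for Tac1), and without the libraries that carried markers of another region all 8 passed, from 0.87 for Bcl11b to 4.64 for Adora2a, as did 2738 of 15240 genes in the higher direction. An F test over the 6 WT regions called 7 of 8 members, all but Bcl11b (adjusted p = 0.145), against 48% of all genes. Without the libraries numbered 1 only Tac1 still passed that test, and without the libraries with markers of another region all 8 did, as did 10671 of 15240 genes.

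Most of the further striatal projection neuron genes were also higher in WT STR, while the list of cAMP and DARPP-32 signalling genes was mixed. As the background for each list below, 12.6% of all 15094 genes (1901) were called higher and 1231 lower. Of 24 further striatal projection neuron genes, 18 were called higher and 0 lower, with a median log2 fold change of 2.38, beside 2.44 for the members and 0.01 for all genes tested. The largest were Sh3rf2 (4.61), the homeobox genes Six3 (3.93) and Isl1 (3.69), and Ido1 (3.73), an enzyme of tryptophan breakdown. Of 26 cAMP and DARPP-32 signalling genes, 5 were called higher and 3 lower, with a median of 0.07, close to the 0.01 of all genes tested. The phosphodiesterase genes Pde1b (1.76) and Pde7b (1.56) and the G protein gene Gnal (0.97) were higher, and the cyclase gene Adcy2 was lower (-0.74). Of 8 neurokinin, adenosine and related receptor genes, 4 were called higher and 1 lower. Those higher were Tacr1, the substance P receptor (1.36), Nt5e, which makes adenosine outside cells (1.03), the Gpr6 relative Gpr12 (0.91) and the adenosine transporter gene Slc29a1 (0.68). WT STR was also higher in all 8 choroid plexus markers, 8 of 10 thalamic and habenular markers and all 8 oligodendrocyte markers. The choroid plexus score (the mean log2(CPM + 0.5) of 8 markers) was 5.48 to 7.24 in KI STR and 6.99 to 7.66 in WT STR, against 0.428 to 4.93 in the 30 libraries of other regions. The thalamic and habenular score was 5.53 to 6.07 in KI STR and 5.05 to 6.04 in WT STR, against 2.37 to 4.49 elsewhere. The oligodendrocyte score did not set WT STR (9.17 to 9.47) apart from WT SN (9.27 to 9.51) or WT VTA (9.15 to 9.45). The part of these markers in the member levels was not tested.

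No member passed the test between Nac and STR in WT. WT Nac against WT STR gave log2 fold changes from -0.77 for Rgs9 to 0.56 for Tac1, and 0 of 8 members passed edgeR's test, against 6.12% of all genes, with 0 at an unadjusted p under 0.05. The 95% intervals were wide, from -3.42 to 2.38 for Adora2a and from -0.74 to 1.86 for Tac1. WT Nac 1 and 3 had Tac1 at 211 and 226 CPM, above all 3 WT STR libraries, and Adora2a at 177 and 186 CPM, inside their range, while WT Nac 2 had 42.0 and 1.30 CPM. No member passed for STR among the KI libraries either. KI STR against the 5 other KI regions gave 0.91 (SE 1.40) for Adora2a and -0.22 (SE 1.05) for Tac1, and 0 of 8 members passed, against 5.14% of all genes, with 0 at an unadjusted p under 0.05. KI HP 2, KI Nac 3 and KI SN 2 each had more of all 8 members than any KI STR library. Without the libraries with markers of another region, Pde10a (1.70, SE 0.31, adjusted p = 0.00551) and Adcy5 (0.56, SE 0.13, adjusted p = 0.0164) passed, as did 1901 of 15434 genes.

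**Figure D3:**
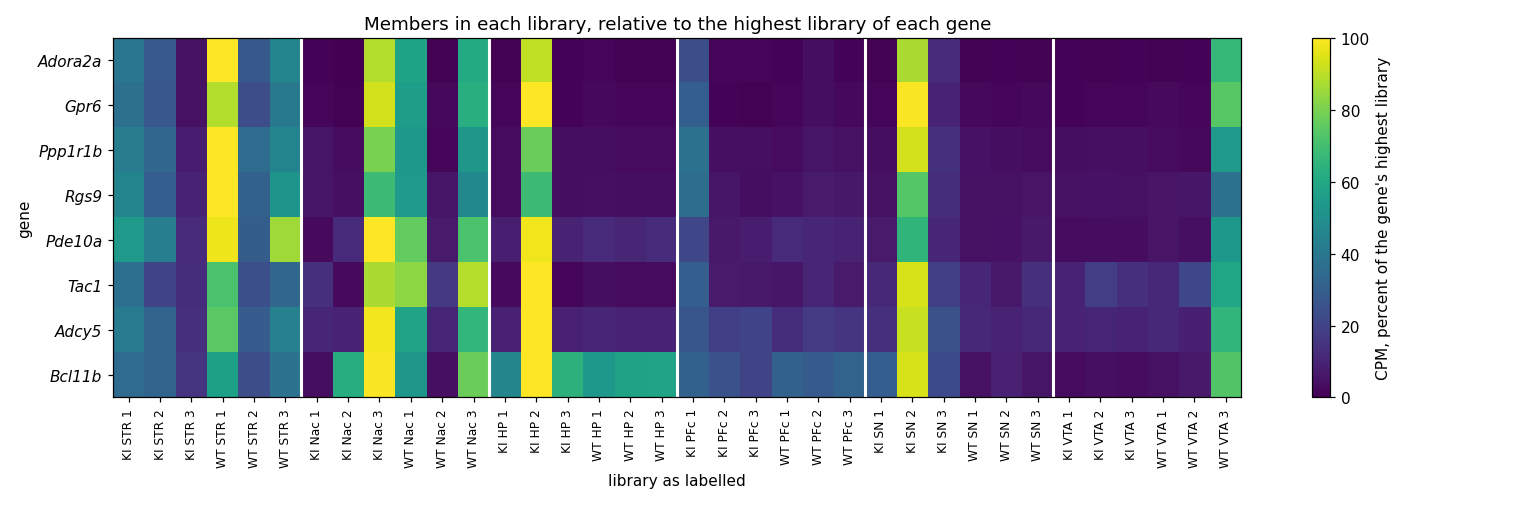
CPM of each member (rows) in each of the 36 libraries (columns, KI left of WT within a region), as a percent of the highest library of that gene. WT STR 1, KI Nac 3, KI HP 2 and KI SN 2 are high in nearly every row, and Bcl11b is also well above its minimum in HP and PFc.

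The study's question was what the knock-in changes in each region. In STR all 8 members had lower means in KI, but none passed edgeR's test. The KI and WT libraries overlapped for each, while 6.84% of all genes had every KI library below every WT library. Adora2a averaged 72.9 ± 53.7 CPM in KI STR and 176 ± 115 CPM in WT STR (SD, n = 3 each), a log2 fold change of -1.31 (SE 0.72, adjusted p = 0.544). Ppp1r1b averaged 610.0 ± 385 CPM in KI STR and 1325 ± 770.2 CPM in WT STR, a log2 fold change of -1.16 (SE 0.59, adjusted p = 0.527). The smallest difference was that of Bcl11b (-0.56, SE 0.38), and the median over the members was -1.08. Of all genes 48.9% had a lower mean in KI STR and 0% were called, so that 0 of 8 members called is the background. No member reached an unadjusted p under 0.05, which 10.8% of genes did, and DESeq2 called 0 of 8 as well, against 1.45% of all genes. KI STR 3 and WT STR 1 carried much of the difference. The median was -0.67 without KI STR 3 and -0.53 without WT STR 1, and all 8 members stayed below 0 in both. Of the 24 further striatal projection neuron genes, 23 had a lower mean in KI STR, with a median of -0.88, beside 0.01 for all genes tested, and 0 passed edgeR's test, while DESeq2 called Six3 lower (-1.14). All 8 choroid plexus markers also had a lower mean in KI STR, and Slc6a3 had 65.8 CPM in KI STR 3 against 0.118 to 1.90 CPM in the other 5 STR libraries. The part of either in the member differences was not tested.

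In SN all 8 members had higher means in KI, as did 51.7% of all genes. Adora2a had 1.78, 267 and 35.9 CPM in KI SN and 1.26, 2.60 and 1.75 CPM in WT SN, so KI SN 2 and 3 lay above every WT library and KI SN 1 among them. Bcl11b had 86.4, 271 and 65.0 CPM in KI SN and 12.9, 27.0 and 16.1 CPM in WT SN. For Bcl11b, Pde10a and Adcy5 every KI library lay above every WT library, which is 3 of 8 members, against 7.78% of all genes. EdgeR called 0 of 8, against 0% of all genes, although all 8 had an unadjusted p under 0.05, which 17.6% of genes had. The log2 fold changes ran from 2.09 for Tac1 (SE 0.77, adjusted p = 0.228) to 5.87 for Adora2a (SE 1.57, adjusted p = 0.152), and the smallest adjusted p was that of Bcl11b (3.02, SE 0.60, adjusted p = 0.122). DESeq2 called 5 of 8 higher, Adora2a, Gpr6, Ppp1r1b, Adcy5 and Bcl11b, against 3.81% of all genes. The authors' deposited table gives q-values under the threshold of 0.05 for 4 of these, Adora2a (0.00498), Gpr6 (0.0319), Adcy5 (0.00901) and Bcl11b (4.54e-06), and 0.0575 for Ppp1r1b. KI SN 1 and 2 had little of the dopamine neuron marker Slc6a3 (1.19 and 0.776 CPM), and the score of the 10 dopamine neuron markers was 1.83 to 6.15 in KI SN and 5.59 to 7.22 in WT SN. Without KI SN 3, Bcl11b alone passed edgeR's test (3.36, adjusted p = 0.0441), beside 383 of 14662 genes called. That fit keeps KI SN 1 and 2 as its only KI libraries. KI SN 1 had the hippocampal gene Spink8 at 15.3 CPM, against 0.164 to 0.346 CPM in WT SN. KI SN 2 had the D1 dopamine receptor gene Drd1 at 178 CPM, against 2.79 to 3.87 CPM in WT SN. The part of other tissue in this call was not tested. Without KI SN 1 and 2 the single library KI SN 3 had higher levels of all 8 members than WT SN, by 0.90 for Tac1 to 4.34 for Adora2a, with adjusted p-values of 0.146 or more and its spread taken from the WT libraries.

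A single library held the high values in HP for the members other than Bcl11b, and another did so in VTA for all 8 members. In HP all 8 members had higher means in KI, as did 50.2% of all genes, with log2 fold changes from 0.31 for Bcl11b (SE 0.26) to 4.99 for Adora2a (SE 1.93, adjusted p = 0.334), and 0 of 8 were called, against 0% of all genes. Adora2a had 2.15, 276 and 3.41 CPM in KI HP and 5.76, 1.69 and 1.22 CPM in WT HP, so that KI HP 1 and 3 lay inside the WT range. The unadjusted p was under 0.05 for 3 members, Adora2a, Gpr6 and Ppp1r1b, and for 14.2% of all genes, and without KI HP 2 the median over the members was -0.08. In VTA all 8 members had lower means in KI, as did 51.1% of all genes, with log2 fold changes from -4.92 for Adora2a (SE 1.81, adjusted p = 0.374) to -1.17 for Tac1 (SE 0.60), with 0 of 8 called, against 0% of all genes. Adora2a had 2.59, 1.94 and 2.57 CPM in KI VTA and 2.34, 3.22 and 203 CPM in WT VTA. Rgs9, Pde10a and Bcl11b were lower in every KI than in every WT library of VTA, 3 of 8 members, against 12.4% of all genes. Pde10a had 15.2 to 18.2 CPM in KI VTA and 27.2, 21.9 and 279.6 CPM in WT VTA 1 to 3. An unadjusted p under 0.05 was found for 4 members, Adora2a, Gpr6, Pde10a and Bcl11b, and for 1880 of all 14491 genes. Without WT VTA 3 the median was -0.23, and Ppp1r1b turned to 0.64 (SE 0.12, adjusted p = 0.0310), the only member to pass, beside 832 of 14623 genes. Ppp1r1b then had 85.2, 86.6 and 92.0 CPM in KI VTA and 65.2 and 50.8 CPM in WT VTA. DESeq2 called 0 of 8 in HP, against 1.99% of all genes, and 0 of 8 in VTA, against 1.44%, and it gave no p-value for 7 members in HP and 5 in VTA.

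In PFc, 7 of 8 members had higher means in KI, against 53.4% of all genes, and KI PFc 1 carried them. Adora2a had 73.2, 4.04 and 4.37 CPM in KI PFc and 2.64, 11.1 and 3.23 CPM in WT PFc, a log2 fold change of 2.27 (SE 1.15, adjusted p = 0.325). Adcy5 had 367, 254 and 277 CPM in KI PFc and 178, 241 and 209.5 CPM in WT PFc. It was the 1 member whose groups did not overlap, against 10.1% of all genes with every KI library above every WT library, and its log2 fold change was 0.56 (SE 0.17, adjusted p = 0.216). EdgeR called 0 of 8, against 0% of all genes, with Adcy5 alone under an unadjusted p of 0.05, beside 18.1% of all genes. DESeq2 called 0 of 8, against 2.81% of all genes, and gave no p-value for 3. Without KI PFc 1 the median over the members was -0.34, against 1.11 with it, while Adcy5 stayed above 0 at 0.42 (SE 0.13, adjusted p = 0.0998). Pde10a then passed edgeR's test with a lower level in KI, at -0.53 (SE 0.12, adjusted p = 0.0468), beside 550 of 14299 genes called. It had 35.2 and 39.4 CPM in KI PFc 2 and 3 and 61.9, 56.9 and 51.7 CPM in WT PFc.

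In Nac, the libraries of each genotype spread over nearly the whole range. KI Nac 3 had all 8 members high, with Adora2a at 269.8 CPM, while KI Nac 1 and 2 had 2.69 and 1.10 CPM. WT Nac 1 and 3 had 177 and 186 CPM, and WT Nac 2 had 1.30 CPM. The log2 fold changes lay between -0.76 for Tac1 and 0.42 for Bcl11b, with 95% intervals as wide as -5.32 to 4.72 for Adora2a, and 0 of 8 members were called by edgeR, against 0% of all genes, or had an unadjusted p under 0.05. DESeq2 called 0 of 8, against 0.014% of all genes, and gave no p-value for 4. Over the sums of the 6 regions, 7 of 8 members had higher means in KI, against 49.2% of all genes, with log2 fold changes from -0.08 for Pde10a (SE 0.47) to 0.25 for Adcy5 (SE 0.39), and 0 of 8 passed with either tool, against 0% of all genes by edgeR and 8.65% by DESeq2, or had an unadjusted p under 0.05. That the genotype differences vary between regions had unadjusted p-values from 0.00586 for Bcl11b to 0.0454 for Adcy5 in edgeR's test of genotype by region, and 8.73% of all genes had one under 0.05. After adjustment over 15367 genes each had an adjusted p of 0.563, and 0 of 8 members were called, against 0% of all genes. Since all 36 libraries enter that test, the libraries named above enter it too.

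**Figure D4:**
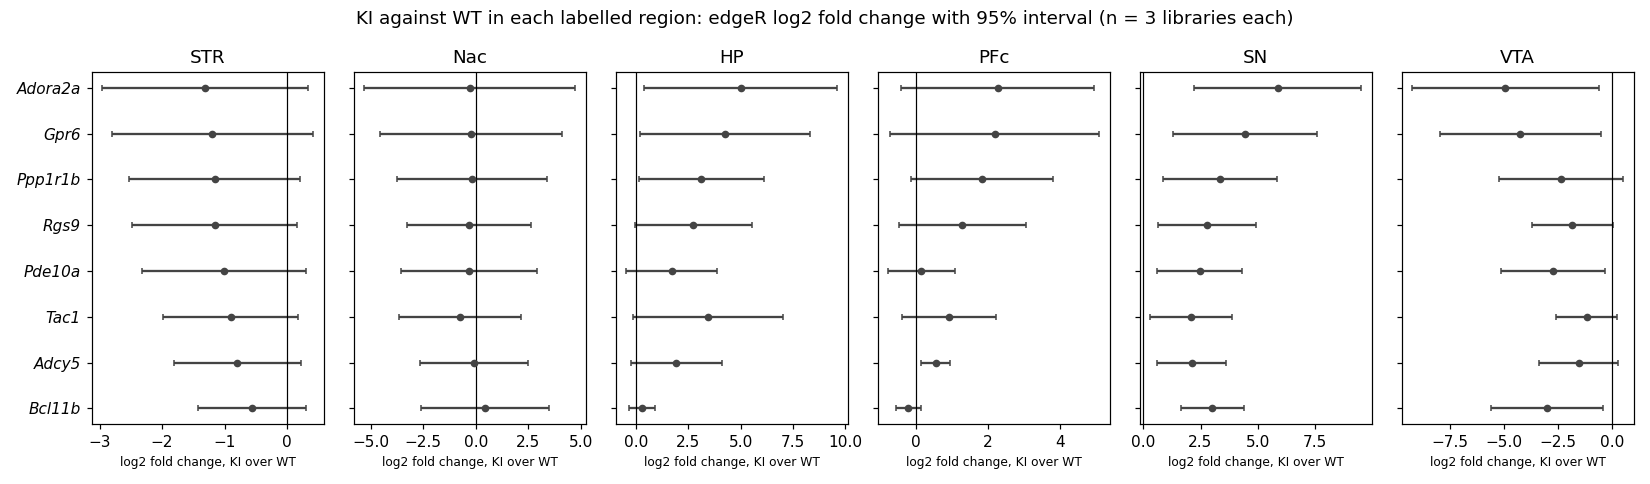
Log2 fold change of KI over WT for each member, with 95% intervals from edgeR (n = 3 libraries each), in each labelled region; the horizontal scales differ between panels. All 8 points lie below 0 in STR and VTA and above 0 in HP and SN, and no member was called in any panel.

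The balance between the direct and indirect pathway genes was measured as log2(Tac1 CPM + 0.5) minus log2(Adora2a CPM + 0.5). In STR it was -0.36, -0.68 and 1.23 in KI and -0.75, -0.45 and -0.71 in WT. KI STR 3, which had Slc6a3 at 65.8 CPM, stood above the other 5 libraries, in which Adora2a had more counts than Tac1. The KI mean was 0.06 ± 1.02 and the WT mean -0.64 ± 0.16 (SD, n = 3 each), a difference of 0.70, with a two-sided exact permutation p of 0.2, where 0.1 is the smallest that 3 against 3 libraries allow. In Nac the balance was 3.46, 2.06 and -0.28 in KI and 0.25, 4.56 and 0.28 in WT, a difference of 0.05 (exact permutation p = 1). All 3 WT Nac libraries stood above all 3 WT STR libraries, a difference that was not tested. The highest library of all was WT Nac 2, which had 23 counts of Adora2a, while KI Nac 1 and 2 had 44 and 19. The D1 dopamine receptor gene Drd1 had 2.39, 2.54 and 2.88 CPM in KI Nac 1, KI Nac 2 and WT Nac 2. It had 117 to 210 CPM in the other Nac libraries. The values of KI Nac 1, KI Nac 2 and WT Nac 2 are therefore no measure of the balance between striatal pathways. They enter the Nac difference and its permutation p, which thus say nothing on that balance. WT Nac 2 also enters the comparison of WT Nac with WT STR above.

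**Figure D5:**
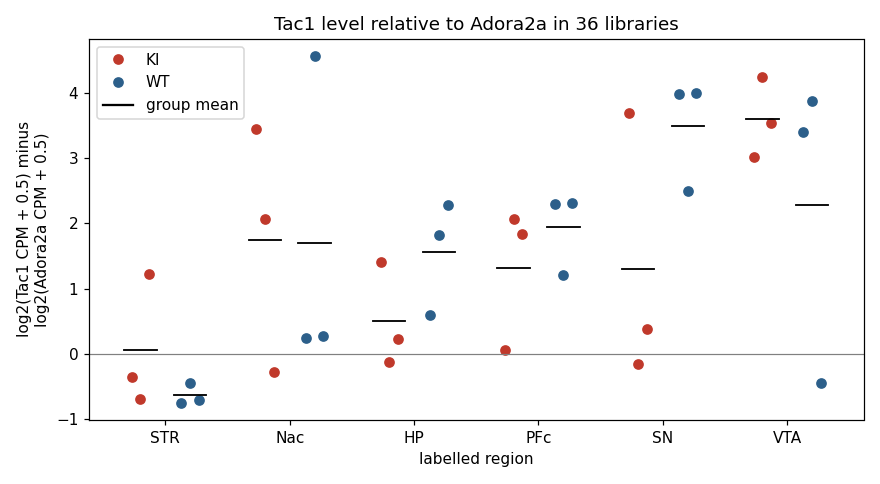
Difference between log2(Tac1 CPM + 0.5) and log2(Adora2a CPM + 0.5) in each library by labelled region, KI (red) left of WT (blue), with black bars at group means. STR libraries other than KI STR 3 lie between -0.75 and -0.36, and most SN and VTA libraries lie above 2.

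The profiles of the members over the 36 libraries were compared by the root mean square difference of their log2 levels, each centred on its own mean. The levels were not scaled, so the difference also grows with a gene's spread. The SD of the log2 levels was 2.80 for Adora2a and 1.16 to 2.24 for the other members. Rgs9 (0.32) and Ppp1r1b (0.41) lay closest to the mean of the 8 members, and Bcl11b (1.38) and Adora2a (1.15) farthest. Of 12923 other genes, the 5 nearest to that mean were Rarb (0.43), a retinoic acid receptor gene, the homeobox gene Dlx6 (0.51), the small GTPase gene Rasd2 (0.56), the orphan receptor gene Gpr52 (0.60) and Tmem158 (0.62). The nearest other gene was Sh3rf2 for Adora2a (0.56), Serpina9 for Gpr6 (0.48), Cd4 for Ppp1r1b (0.54) and Rarb for Rgs9 (0.40). It was Rasd2 for Pde10a (0.52), Slc35d3 for Tac1 (0.49), Pde7b for Adcy5 (0.38) and Lmo7 for Bcl11b (0.42). Among the members, the nearest to Adora2a was Gpr6 (0.77), to Gpr6 Ppp1r1b (0.54), and Rgs9 and Ppp1r1b were nearest to each other (0.45). Rgs9 was also the nearest member to Pde10a (0.70), Tac1 (0.76) and Adcy5 (0.63), and Pde10a was the nearest to Bcl11b (1.07). These distances are a description over libraries that share regions and depth.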

How the data were processed

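Brain tissue of 6 regions of KI and WT mice gave 36 libraries made with a SMARTER mRNA-seq kit, per the labels' protocols. The authors deposited estimated counts and TPM per gene, estimated counts per transcript, and a table of log2 fold changes with DESeq2 p-values and q-values. The build was GRCm38.p6, per the submitters' processing notes. The aligner, the counter and its strand setting were not given in the sources used here. Of the deposited gene counts 9.88% were not whole, and counts were rounded. edgeR 4.0.16 (filterByExpr, TMM normalization, quasi-likelihood test, Benjamini-Hochberg adjustment, threshold 0.05) was fitted to all genes in R 4.3.3, per region for KI against WT, over 18 libraries per genotype for regions, and over 36 for genotype by region. It was tested on simulated data. DESeq2 1.42.0 was an alternative. CPM are counts scaled by the library total, and log2 levels are log2(CPM + 0.5). Groups came from the labels' genotype and region. The numbers were not taken to pair KI with WT libraries. Same-numbered KI and WT libraries of a region deviated together (correlation over 0.1) in 2 of 18 pairs. Within a genotype, same-numbered libraries of 2 regions did so in 9 of 45 pairs in KI and 13 of 45 in WT. Whether they share an animal is not stated, and these counts cannot settle it, since libraries of different numbers were not compared in the same way. The main region fits took them as independent, while the region sums added them up by number. No pair among 630 looked like a library deposited again. In the tables, 180 columns of per-sample values were not used.

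The member genes, the gene lists and the libraries left out in one alternative were chosen with earlier results of these data known. The named genes were the 8 members, up to 4 called genes of each related list by size of fold change, the 5 genes with the profile nearest to the member mean, the nearest gene to each member, and Maoa. Promoters are RefSeq's and transcripts those of GENCODE M21. Matplotlib 3.10.9 drew the figures.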

Additional observations from a re-analysis of the deposited data

How the results depend on the processing

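Of 845 values of single members under other settings, 736 kept direction and side of the threshold, 85 reversed, 12 newly passed and 12 no longer passed. The lowest counts were 9 for Gpr6 and 19 for Adora2a, and each cause below was not tested. Among all genes, edgeR called 0 for KI against WT in each region, while DESeq2 called 212 in STR, 2 in Nac, 282 in HP, 398 in PFc, 987 in SN and 208 in VTA. Leaving out 1 library at a time gave 0 to 2 calls in STR, 0 to 60 in HP (60 without KI HP 2), 0 to 550 in PFc (550 without KI PFc 1), 0 to 383 in SN (383 without KI SN 3) and 0 to 832 in VTA (832 without WT VTA 3). Region sums gave 0 calls, but 5 with no filter on low counts, 1399 with DESeq2, 1455 with 36 libraries and region as a term, and 0 to 10 with a sum left out. Genotype by region gave 0 calls, 0 to 1 with a number left out and 8 without the libraries with markers of another region. Leaving out a number gave 2156 to 5897 calls in place of 7248 between WT regions, 1276 to 2152 in place of 3132 for WT STR, 229 to 449 in place of 924 for WT Nac against WT STR and 218 to 454 in place of 775 for KI STR. Without the libraries with markers of another region the last comparisons gave 2641 (WT Nac against WT STR) and 1901 (KI STR). For PFc that setting left out no library, and in STR, HP and VTA it left out the single library KI STR 3, KI HP 2 or WT VTA 3.

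With the replicate number as a block, 13 genes were called in SN, and Adcy5 passed in WT STR against the other WT regions (1.39, adjusted p = 0.0393 by edgeR). The block reversed Pde10a in PFc (-0.030), Bcl11b in WT Nac against WT STR (-0.079), and Tac1 (0.00047) and Adcy5 (0.15) in KI STR against the other KI regions. It changed no other call.

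Without the libraries with markers of another region, which leaves KI Nac 3 as the only KI library of Nac, its spread taken from the WT libraries, KI against WT in Nac reversed for Adora2a (0.68), Gpr6 (0.76), Ppp1r1b (0.70), Rgs9 (0.56), Pde10a (0.55), Tac1 (0.14) and Adcy5 (0.77). So did WT Nac against WT STR for Adora2a (0.079), Gpr6 (0.25), Pde10a (0.092) and Adcy5 (0.37), and KI STR against the other KI regions for Tac1 (0.79), Adcy5 (0.56) and Bcl11b (0.20). With region as a term in place of sums, Pde10a was 0.051 and Bcl11b -0.0097.

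Leaving out 1 library at a time, or all libraries or the sum of 1 number where so stated, gave these ranges where a sign changed. In Nac they were -5.95 to 0.27 for Adora2a, -5.23 to 0.34 for Gpr6, -2.98 to 0.35 for Ppp1r1b, -2.76 to 0.17 for Rgs9, -2.71 to 0.23 for Pde10a, -2.06 to 0.38 for Adcy5 and -0.32 to 1.06 for Bcl11b. In HP they were -0.017 to 5.98 for Adora2a, -0.34 to 4.82 for Gpr6, -0.069 to 3.26 for Rgs9, -0.32 to 2.18 for Pde10a, -0.55 to 3.99 for Tac1, -0.093 to 2.39 for Adcy5 and -0.0038 to 0.53 for Bcl11b. In PFc they were -0.35 to 3.22 for Adora2a, -1.22 to 2.74 for Gpr6, -0.0094 to 2.28 for Ppp1r1b, -0.35 to 1.74 for Rgs9, -0.53 to 0.44 for Pde10a and -0.10 to 1.26 for Tac1. In VTA they were -2.87 to 0.64 for Ppp1r1b and -1.97 to 0.050 for Adcy5. Over region sums, leaving out 1 sum of 6 libraries, they were -0.39 to 0.43 for Adora2a, -0.31 to 0.61 for Gpr6, -0.19 to 0.46 for Ppp1r1b, -0.27 to 0.36 for Rgs9, -0.46 to 0.23 for Pde10a, -0.28 to 0.35 for Tac1, -0.063 to 0.53 for Adcy5 and -0.070 to 0.51 for Bcl11b. For WT Nac against WT STR, leaving out all libraries of 1 number, they were -0.91 to 0.035 for Gpr6, -0.56 to 0.089 for Adcy5 and -0.47 to 0.47 for Bcl11b. Left out in the same way, for KI STR against the other KI regions they were -0.80 to 0.80 for Tac1, -0.61 to 0.50 for Adcy5 and -0.58 to 0.13 for Bcl11b. The balance of Tac1 to Adora2a in Nac reversed with a pseudocount of 2 (-0.060), with Gpr6 in place of Adora2a (-0.020) and without the libraries with markers of another region (-0.54), and ranged from -0.81 to 1.48 with 1 library left out.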

Other observations

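Other gene groups followed the members in some comparisons of KI against WT. In SN, DESeq2 called 9 of 23 further striatal projection neuron genes higher in KI, against 3.81% of all genes, while edgeR called 0. Among the 9 were Lrrc10b (log2 fold change 4.71), the D1 dopamine receptor gene Drd1 (4.51) and Ido1 (3.80). In the same region DESeq2 called 3 of 26 cAMP and DARPP-32 signalling genes higher, against the same 3.81%, namely Gng7 (3.66), Pde2a (1.63) and Ppp3ca (1.42). It called the orphan receptor gene Gpr3 lower (-1.03), beside 438 of 14418 genes called lower. The median over the further striatal genes was 2.06 in SN, 2.49 in HP, 0.86 in PFc, -0.21 in Nac and -1.62 in VTA by edgeR, beside 2.90, 2.93, 1.11, -0.26 and -2.53 for the members. These values rest on the same libraries as those of the members, among them KI SN 1 and 2, which had little Slc6a3.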
